A study of Mus musculus with 7 samples.

Results

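The genes described here are 10 feedback inhibitors of mitogen-activated protein kinase (MAPK) signalling, taken by symbol from deposited tables of 30899 genes: the dual-specificity phosphatases Dusp1, Dusp2, Dusp4, Dusp5, Dusp6 and Dusp10, the Sprouty genes Spry1, Spry2 and Spry4, and Spred1. They were measured by bulk RNA sequencing in 7 libraries of primary endothelial cells taken from mouse skeletal muscle with beads, with RNA extracted directly afterwards. The libraries were 4 labelled as endothelial GLUT1 knockout and 3 labelled wild type, and none had a special treatment. The series asks how deletion of GLUT1, the glucose carrier encoded by Slc2a1, in endothelium alters the metabolic balance of muscle. Neither the Cre driver nor the strain, age and sex of the mice are given in the sources used here. The labels do not tie libraries to separate animals, and p-values thus speak of the spread among these 7 libraries, which may be technical.

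Growth factor receptors on endothelium, such as those for VEGF and FGF, signal through Ras, Raf and MEK to the kinase ERK, while stress and cytokines act through the related kinases JNK and p38. Dual-specificity phosphatases switch these kinases off by removing phosphate from the threonine and tyrosine of the activation loop. Sprouty and Spred proteins act further up, between the receptor and Raf. Many of these genes are themselves induced by the pathway, which makes them feedback inhibitors and common transcript markers of recent MAPK activity.

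Promoter windows, running from 250 bases before to 50 bases after the annotated start, were found for 8 of the 10 genes in RefSeq (build GRCm38.p6). Those of Dusp1, Dusp2 and Dusp5 are shown because they held the only matches among the 8 to the cyclic AMP response element (CRE), to its short form, to the CArG box bound by serum response factor, and to the E-box. Capitals mark CRE (TGACGTCA), short CRE (TGACG), E-box (CACGTG) and CArG box matches on either strand, and each window runs 5′ to 3′ along the gene's own strand.
Dusp1 (chr17:26508423-26508722, minus strand): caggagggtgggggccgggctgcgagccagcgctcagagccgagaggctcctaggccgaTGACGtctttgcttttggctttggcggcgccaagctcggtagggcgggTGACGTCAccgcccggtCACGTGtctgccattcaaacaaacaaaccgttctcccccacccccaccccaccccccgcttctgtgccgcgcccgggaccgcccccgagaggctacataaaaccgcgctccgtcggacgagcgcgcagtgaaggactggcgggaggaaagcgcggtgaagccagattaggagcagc
Dusp2 (chr2:127335909-127336208, plus strand): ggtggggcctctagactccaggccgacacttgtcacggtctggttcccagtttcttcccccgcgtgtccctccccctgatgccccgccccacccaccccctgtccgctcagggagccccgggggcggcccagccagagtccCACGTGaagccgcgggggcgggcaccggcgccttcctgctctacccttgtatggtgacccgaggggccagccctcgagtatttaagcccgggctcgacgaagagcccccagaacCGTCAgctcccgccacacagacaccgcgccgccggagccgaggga
Dusp5 (chr19:53528895-53529194, plus strand): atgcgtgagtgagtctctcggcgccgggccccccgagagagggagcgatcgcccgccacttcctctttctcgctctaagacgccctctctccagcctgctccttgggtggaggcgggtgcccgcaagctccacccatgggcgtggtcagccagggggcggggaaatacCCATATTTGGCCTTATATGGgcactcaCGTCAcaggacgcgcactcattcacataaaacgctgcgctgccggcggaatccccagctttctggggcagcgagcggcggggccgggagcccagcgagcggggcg

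The Dusp1 window held 1 full CRE, from -143 to -136, and 1 further short CRE, with an E-box from -126 to -121, positions being counted from the start base at 0. Dusp5 held 2 CArG boxes side by side, from -82 to -63, and a short CRE downstream of them. In Dusp2 there were an E-box from -109 to -104 and a short CRE from 5 to 9. Of 32851 windows in the same table, 1.79% held a full CRE, 1.63% a CArG box, 20.8% a short CRE and 7.15% an E-box. The short CRE lies within the full one, so those shares overlap. The Sp1 motif GGGCGG was in 6 of the 8 windows and in 35.7% of all, and the ETS motif CCGGAA was in 1, that of Spry2, and in 14.9% of all. Both strands were searched for every motif. Matches to the AP-1 motif TGANTCA (7.81% of all windows) and to TATAAA (13.6%) were not found in these 8 windows. These matches are letters in a window, not measured sites.

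**Figure D1:**
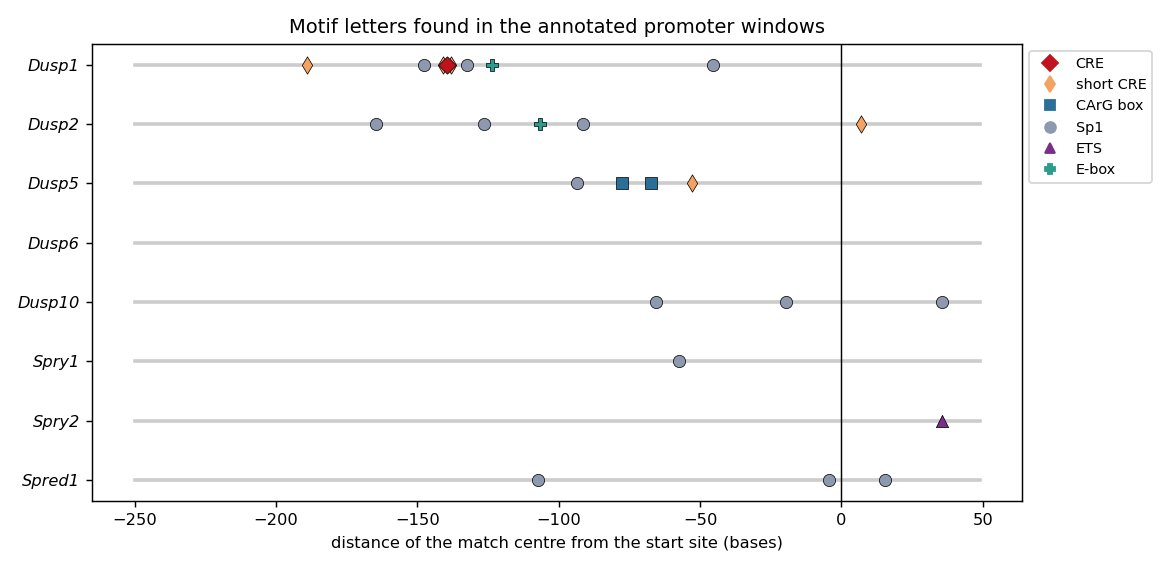
Positions of motif matches in the 8 promoter windows, plotted as distance in bases from the annotated start site, with 1 grey line per gene and 1 symbol per match. The full CRE lies in Dusp1 and the 2 adjacent CArG boxes in Dusp5, while the Dusp6 window has no match to any motif searched.

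The transcripts also differed in AU-rich elements, the ATTTA repeats in 3′ untranslated regions through which proteins of the Zfp36 family shorten the life of many induced mRNAs. In the GENCODE M21 annotation (GRCm38) Dusp1 carried 4 ATTTA pentamers in 690.0 bases and Dusp2 carried 4 in 581 bases. Dusp2 thus had 6.89 per kilobase, above 97.2% of tested genes with a 3′ untranslated region, and Dusp1 had 5.80, above 95.5%. The other members held between 0.841 per kilobase in Dusp6 and 2.77 in Spred1, against a median of 1.25 over 13452 genes. Dusp1 alone among the members held the longer element TTATTTATT, at 2 sites, and 7.71% of tested genes had at least 1. Both are shown with capitals on that element, beside 1 pentamer of Dusp2 and the single pentamer of Dusp6, with capitals on ATTTA.
Dusp1, first site (chr17:26506159-26506187, minus strand): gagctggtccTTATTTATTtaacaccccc
Dusp1, second site (chr17:26505870-26505898, minus strand): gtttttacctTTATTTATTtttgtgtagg
Dusp2 (chr2:127338308-127338328, plus strand): cactttatATTTAtatagaac
Dusp6 (chr10:99267424-99267444, plus strand): gagctggaATTTAttataaga

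Values are the authors' normalised counts per gene. All 10 genes were above 0 in all 7 libraries, from 41.9 for Dusp10 to 10579 for Dusp1, and all passed the filter on low values, a 7-library mean of 10 or more. Changes are differences in log2(normalised count + 1), libraries labelled knockout minus wild type, from a limma fit over 16931 genes, and on this scale a change of a low gene is understated. A gene is called changed at an adjusted p under 0.05 (Benjamini-Hochberg over all tested genes).

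Several measures of the libraries differed with the label. Totals of normalised counts were 14592369 to 15731074 in the knockout-labelled libraries and 11855652 to 13441728 in wild type. The depth in reads is unknown, since whole reads could not be recovered from these values. Genes listed at 0 numbered 7301 to 9306 in the knockout-labelled libraries and 2794 to 6551 in wild type, and the nuclear RNA Malat1 took 0.22% to 0.471% and 0.904% to 2.01% of the total. The 1153 olfactory and vomeronasal receptor genes together took 0.0446% to 0.0715% in the knockout-labelled libraries and 0.111% to 0.251% in wild type, without overlap. Wild-type library 1 stood furthest out in each measure, with the lowest total, 2794 genes at 0, 2.01% Malat1 and 0.251% receptor genes. Wild-type libraries 2 and 3 had 5872 and 6551 genes at 0, 1.04% and 0.904% Malat1, and 0.12% and 0.111% receptor genes. Those values also lay outside the knockout-labelled ranges. The part of these differences in the lower values of low genes such as Dusp2 and Dusp10 was not tested. The 8 endothelial markers summed to 110597 to 122093 in the knockout-labelled libraries and 82259 to 106464 in wild type, with none at 0 in any library. These sums are not shares of the totals, which were also higher in every knockout-labelled library. The 8 markers did not all move alike. Emcn was called higher (0.51, adjusted p = 0.0484), Egfl7 was called lower (-0.47, adjusted p = 0.0349) and the others were not called. Among the other cell types, the lists for fibroadipogenic progenitors (2 of 6), smooth muscle and pericytes (4 of 8), satellite cells (3 of 5), Schwann cells (3 of 5) and erythroid cells (5 of 5) held the most genes called higher. Of all tested genes 5.98% were called higher and 5.53% lower. No list of another cell type held a gene called lower. Slc2a1, the gene the labels name as deleted, had 953, 1435, 824 and 1087 normalised counts in the knockout-labelled libraries, against 1032, 1083 and 1266 in wild type (log2 fold change -0.09, SE 0.18, adjusted p = 0.738). The exons removed are not given in the sources used here, so a count over the whole gene cannot check the deletion. The libraries are therefore named by their label, and directions rest on it. Over all genes 1013 were called higher and 936 lower. With equal totals the split was 226 and 1621, with values centred on endothelial markers 169 and 1031, and with quantile normalization 417 and 641. It was 2973 and 807 with the trend on exonic length removed, and 1081 and 563 when the filter on the mean was raised to 50. The median over all genes was 0.02 as reported, -0.20 with equal totals and 0.19 with the trend on exonic length removed. That last setting took off the level of the fitted trend as well as its shape, so it also shifted genes as a whole.

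Of the 10 feedback genes 1 was called changed, Dusp2, which fell. The other 9 did not pass, with estimates above 0 for Dusp4, Spry1, Spry2 and Spred1 and below 0 for Dusp1, Dusp5, Dusp6, Dusp10 and Spry4. That is 10% of the members, beside 11.5% of all genes tested, so the share called is near the background. Their median log2 fold change was -0.18, against 0.02 for all tested genes. Without knockout-labelled library 1, wild-type library 1 or wild-type library 2 the count was 0, with 3.55%, 0.224% and 6.24% of all tested genes called. Without knockout-labelled library 3 or wild-type library 3 it was 2, with 11.8% and 9.87% of all tested genes called. The members are coded by separate genes but share libraries, so they are not replicates of one another.

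**Figure D2:**
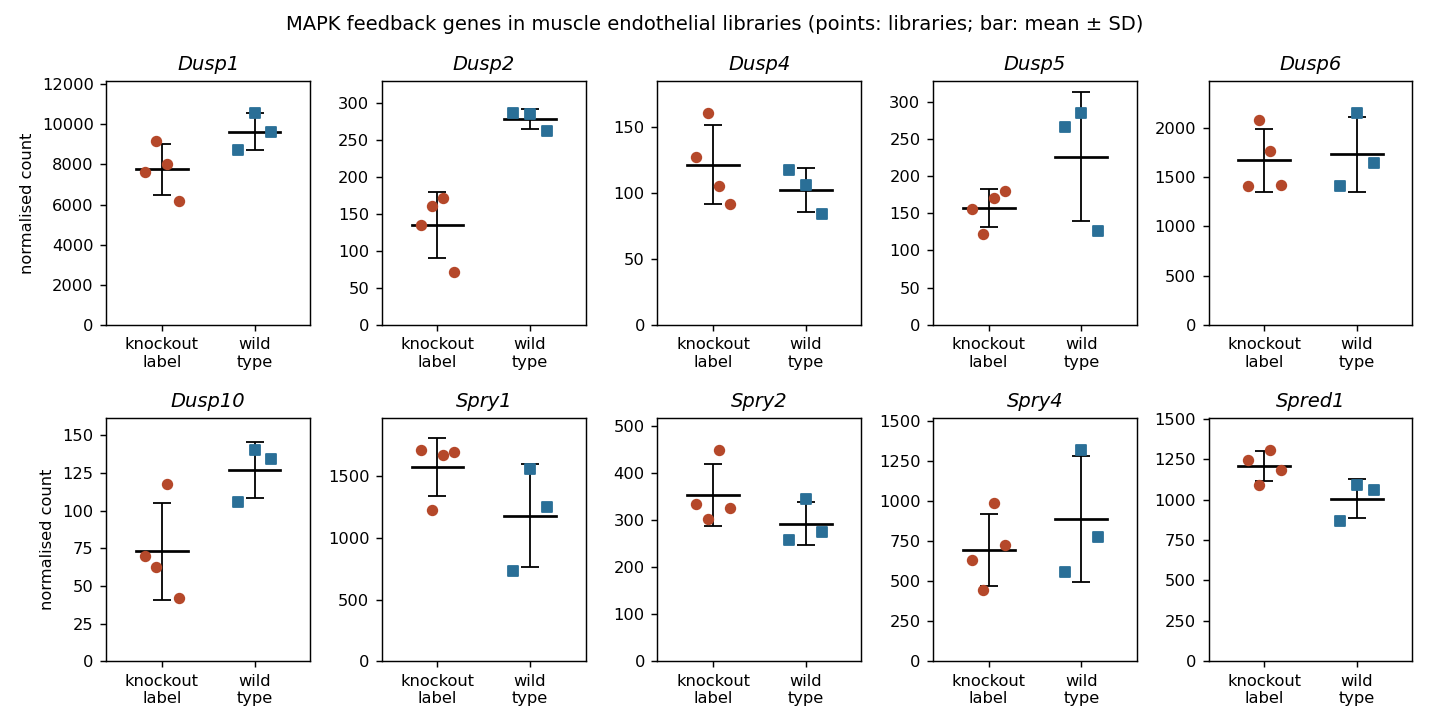
Normalised counts of the 10 feedback genes, 1 panel per gene with its own axis from 0, for the knockout-labelled libraries (circles, n = 4) and wild type (squares, n = 3), with bars for mean ± SD. Only for Dusp2 do all 4 knockout-labelled values (72.0 to 171) lie below all wild-type values (263 to 287).

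Levels per kilobase of exon spanned a wide range, and the leading gene was Dusp1 by a clear margin. Dusp1 stood at 1858 to 3195 normalised counts per kilobase (median 2641 over 7 libraries), above Dusp6 in 7 of 7 libraries. Dusp6 (median 524) and Spry1 (median 535) had overlapping ranges, Dusp6 being the higher in 4 of 7 libraries. Spred1 (median 161), Spry4 (median 152) and Spry2 (median 156) came next with overlapping ranges, below Spry1 in every library in the case of Spred1. Dusp2 (median 85.5), Dusp5 (69.2), Dusp4 (38.5) and Dusp10 (34.7) closed the order, each range overlapping that of the next. Dusp1 made up 51.8% to 61.9% of the members' summed normalised counts in the knockout-labelled libraries and 59.2% to 65.5% in wild type.

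Dusp1 and Dusp10 code for phosphatases that act mainly on p38 and JNK. Dusp1, an immediate early gene, had 7612, 9193, 8042 and 6152 normalised counts in the knockout-labelled libraries, against 8744, 10579 and 9602 in wild type. Only knockout-labelled library 2 reached into the wild-type range. Dusp1 averaged 7749.6 ± 1257 in the knockout-labelled libraries (SD, n = 4) and 9642 ± 918 in wild type (SD, n = 3). The log2 fold change was -0.33 (SE 0.14, 95% interval -0.63 to -0.02, adjusted p = 0.135). Dusp1 passed under 3 other scalings, so its call depends on that choice. With equal totals it stood at -0.55 (adjusted p = 0.0272, 10.9% of tested genes called). Centring on endothelial markers gave -0.55 (adjusted p = 0.0432, 7.09% called), and quantile normalization -0.50 (adjusted p = 0.0487, 6.25% called). With the trend on exonic length removed it was -0.13 (adjusted p = 0.514).

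Dusp10 had 69.6, 62.6, 117 and 41.9 normalised counts in the knockout-labelled libraries, against 106, 140.4 and 134 in wild type. Knockout-labelled library 3 overlapped the wild-type values and the other 3 lay below them. The log2 fold change was -0.88 (SE 0.33, 95% interval -1.58 to -0.18, adjusted p = 0.0879), and without knockout-labelled library 3 it passed, at -1.13 (adjusted p = 0.0351, 11.8% of tested genes called).

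Dusp2, Dusp4 and Dusp5 code for inducible phosphatases of the nucleus. Dusp2, best known from activated immune cells, had 135, 161, 171 and 72.0 normalised counts in the knockout-labelled libraries, against 287, 285 and 263 in wild type. The groups did not overlap, as was so for 28.8% of all tested genes. Dusp2 averaged 135 ± 44.6 in the knockout-labelled libraries (SD, n = 4) and 278 ± 13.6 in wild type (SD, n = 3). The log2 fold change was -1.11 (SE 0.27, 95% interval -1.70 to -0.53), with an adjusted p of 0.026 from limma and an exact two-sided permutation p of 0.0286, the smallest that 35 splits allow. The fitted level was 0.462 of wild type (95% interval 0.308 to 0.694), and 14.0% of tested genes had a lower log2 fold change. The call ended without knockout-labelled library 1 (adjusted p = 0.0527), wild-type library 1 (0.131) or wild-type library 2 (0.0573), while the estimates there lay between -1.14 and -1.09. In these settings 3.55%, 0.224% and 6.24% of all tested genes were called, so loss of a call was not particular to Dusp2.

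Because Dusp2 is abundant in lymphocytes and myeloid cells, their markers are given beside it. The 8 markers of T and B lymphocytes summed to 17.4 to 37.8 normalised counts in the knockout-labelled libraries and 41.4 to 127 in wild type, without overlap. The sum was 127 in wild-type library 1, against 91.3 and 41.4 in wild-type libraries 2 and 3. Only 2 of the 8 passed the filter on low values, and neither was called. These were Cd79a (-0.96, SE 0.79, adjusted p = 0.416) and Ptprc (-0.80, SE 0.58, adjusted p = 0.353), both overlapping between groups. Cd3e, Cd3g, Cd4, Cd8a, Cd79b and Ms4a1 were listed at 0 in at least 1 library, and Ptprc, the pan-leukocyte antigen, ran from 8.85 to 25.0 and from 11.6 to 36.7. The 8 macrophage markers summed to 263 to 418 and 213 to 273, with Adgre1 and C1qa at 0 in at least 1 library, and 1 of them, Lyz2, was called higher. Without Lyz2 the other 7 summed to 109 to 174 in the knockout-labelled libraries and 137 to 219 in wild type. Cd68 had 21.6, 39.2, 40.2 and 33.1 normalised counts in the knockout-labelled libraries, against 96.5, 98.8 and 45.6 in wild type. It was lower without overlap (log2 fold change -1.19, SE 0.38, adjusted p = 0.058, not called). C1qb went the other way without overlap, at 6.63 to 27.8 against 1.83 to 4.87 (1.92, SE 0.81, adjusted p = 0.121, not called). Of all tested genes 14.1% lay below and 14.7% above without overlap. Csf1r (-1.18), Mrc1 (-0.16) and Cd163 (0.68) overlapped between groups and were not called. The 5 neutrophil markers summed to 19.7 to 165 and 33.2 to 34.5, with 4 of them at 0 in at least 1 library. The part of these cells in the Dusp2 result was not tested. In such bulk samples fewer cells of a type and less RNA per cell cannot be told apart.

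Dusp5, whose protein holds ERK in the nucleus while dephosphorylating it, had 155, 122, 171 and 179.6 normalised counts in the knockout-labelled libraries, against 267, 285 and 126 in wild type. Wild-type library 3 lay among the knockout-labelled values and the other 2 stood above them. The log2 fold change was -0.45 (SE 0.28, 95% interval -1.05 to 0.14, adjusted p = 0.272), and without wild-type library 3 it was -0.83 (adjusted p = 0.0459, 9.87% of tested genes called). Without wild-type library 1 or 2 it was -0.29 or -0.24 (adjusted p = 0.629 and 0.624). An antisense gene overlaps Dusp5 exons in the GENCODE annotation, and no source used here says if counting used strand.

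Dusp4 had 127, 160.4, 105 and 91.6 normalised counts in the knockout-labelled libraries, against 117, 105 and 83.8 in wild type, and these overlapped. The estimate was 0.23 on the log2 scale (SE 0.26, 95% interval -0.33 to 0.79, adjusted p = 0.571), and from 0.00 to 0.53 in the alternative settings.

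Dusp6 is the cytoplasmic phosphatase selective for ERK and a usual transcript marker of ERK output. It had 1406, 2079, 1769 and 1423 normalised counts in the knockout-labelled libraries, against 1407, 2154 and 1641 in wild type. The ranges all but coincided. Its log2 fold change was -0.05 (SE 0.17, adjusted p = 0.86), and the 95% interval, -0.42 to 0.32, corresponds to 0.745 to 1.25 of the wild-type level. The estimate changed sign in 5 of 22 alternative settings.

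Sprouty proteins hold back signalling from receptor tyrosine kinases to Ras. Spry1 had 1714, 1225, 1673 and 1691 normalised counts in the knockout-labelled libraries, against 732, 1556 and 1245 in wild type. The wild-type values spread wider (SD 416) than the knockout-labelled ones (SD 234), of which only library 2 fell within the wild-type range. The log2 fold change was 0.47 (SE 0.21, 95% interval 0.01 to 0.94, adjusted p = 0.145), and 0.17 without wild-type library 1. With the trend on exonic length removed Spry1 was called, at 0.69 (adjusted p = 0.0337, 22.9% of tested genes called in that setting). The same setting moved the median over all genes from 0.02 to 0.19, so length and a shift of all genes cannot be told apart in it. In the annotation a gene on the opposite strand overlaps Spry1 exons.

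Spry2 had 334, 303, 451 and 326 normalised counts in the knockout-labelled libraries, against 257, 346 and 276 in wild type, an estimate of 0.26 on the log2 scale (SE 0.19, adjusted p = 0.349). The groups overlapped through wild-type library 2. In the alternative settings Spry2 ran from 0.04 with equal totals to 0.49 with the length trend removed.

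Spry4 had 631, 446, 989 and 724 normalised counts in the knockout-labelled libraries, against 557, 1323 and 779 in wild type. The groups overlapped, and the log2 fold change was -0.31 (SE 0.28, 95% interval -0.91 to 0.28, adjusted p = 0.454). Without wild-type library 2 it was 0.02. Its estimates in the alternative settings ran from -0.81 to 0.02. The list of 8 smooth muscle and pericyte markers summed to 61084 to 68652 in the knockout-labelled libraries and 36294 to 48359 in wild type, with none at 0. Acta2, Myh11, Tagln and Cnn1 were called higher, while Rgs5, Pdgfrb, Kcnj8 and Abcc9 were not called, at -0.15 to 0.06. Their part in the Spry4 values was not tested.

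Spred1, whose protein brings the Ras inactivator neurofibromin to the membrane, had 1247, 1089, 1309 and 1181 normalised counts in the knockout-labelled libraries, against 870.4, 1090.3 and 1058 in wild type. Knockout-labelled library 2 fell just under the highest wild-type library and the other 3 were above all of wild type. The log2 fold change was 0.27 (SE 0.14, 95% interval -0.03 to 0.56, adjusted p = 0.192). It was called with the length trend removed (0.40, adjusted p = 0.0494) and stood at 0.04 with equal totals. The median over all genes was 0.19 and -0.20 in those settings.

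Ratios of 2 genes within a library are free of its scaling factor but for the pseudocount, and 6 were compared by two-sided exact permutation tests over 35 splits. None passed after Benjamini-Hochberg adjustment over the 6, and 0 had an unadjusted p under 0.05. With 35 splits the smallest p is 0.0286, so at least 4 of the 6 ratios would have had to reach it together, and a single shifted ratio could not pass. The log2 ratio of Dusp4 to Dusp1 averaged -6.01 ± 0.183 in the knockout-labelled libraries (SD, n = 4) and -6.56 ± 0.312 in wild type (SD, n = 3), a difference of 0.55 that was the nearest to passing (exact permutation p = 0.0571, adjusted p = 0.171). Dusp6 to Dusp1 differed by 0.27 and Spry4 to Spry2 by -0.57 (exact permutation p = 0.0857 and adjusted p = 0.171 for each). Spry1 to Spry2 differed by 0.21 and Dusp5 to Dusp6 by -0.40 (adjusted p = 0.48 for each), and Spred1 to Spry2 by 0.00.

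**Figure D3:**
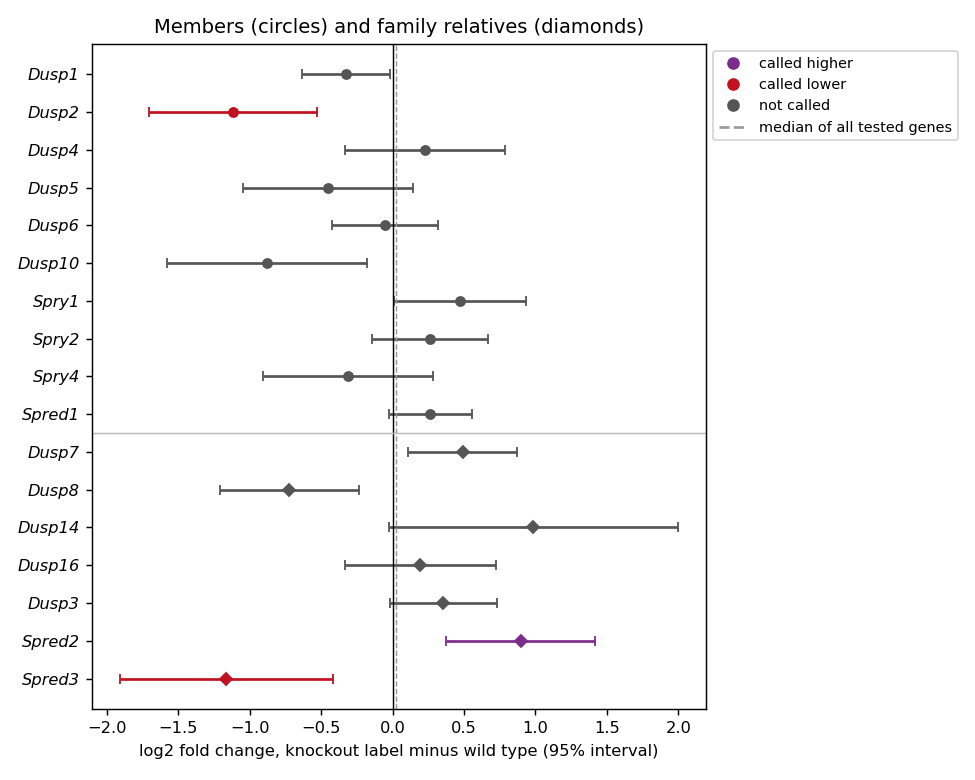
Log2 fold changes (knockout label over wild type) with 95% intervals from limma for the 10 feedback genes (circles, above the line) and 7 tested relatives (diamonds, below it); colour gives the call at an adjusted p under 0.05. Dusp2 lies at -1.11, and the relatives Spred2 (0.90) and Spred3 (-1.16) lie on opposite sides of 0.

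Among 9 relatives of the members, 8 were in the tables and 7 were tested, and 1 was called higher and 1 lower, which is 28.6% of the 7 beside 11.5% of all tested genes. Spred2, a close relative of Spred1 with the same action on Ras, rose: it had 1997, 1097, 1936 and 1781 normalised counts in the knockout-labelled libraries, against 595, 1278 and 927 in wild type. Wild-type library 2 exceeded knockout-labelled library 2, so the groups overlapped, and the log2 fold change was 0.90 (SE 0.24, adjusted p = 0.0349). Spred3 fell, with 45.4, 63.4, 87.7 and 47.1 normalised counts in the knockout-labelled libraries, against 186, 78.3 and 160.0 in wild type (log2 fold change -1.16, SE 0.35, adjusted p = 0.0456, groups overlapping). Both calls ended in 12 of 22 alternative settings. The 5 not called were Dusp7, Dusp8, Dusp14, Dusp16 and Dusp3, with estimates from -0.72 for Dusp8 to 0.99 for Dusp14. Dusp9 was at or near 0 throughout, up to 1.36, and Spry3 was not analysed here.

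Other genes that ERK signalling induces behaved unequally. Of 15 tested, 1 was called higher and 3 lower, which is 26.7% beside 11.5% of all tested genes. The other 11 were not called, and the list had a median log2 fold change of -0.14. Those not called, named after their values were seen, included Fosb (-0.48), Myc (-0.28), Ier2 (-0.28), Egr1 (-0.23), Epha4 (-0.14), Ier3 (-0.09) and Etv4 (-0.04). The rest of them lay above 0: Egr2 (0.05), Fos (0.11), Phlda1 (0.23) and Etv5 (1.06). Egr3, an immediate early transcription factor, fell: it had 277, 372, 429 and 228 normalised counts in the knockout-labelled libraries, against 1431, 1470 and 1453 in wild type, with no overlap (-2.19 on the log2 scale, SE 0.20, adjusted p = 0.00038). Fosl2, an AP-1 subunit, also fell (-0.82, SE 0.14, adjusted p = 0.00827), as did the ephrin receptor gene Epha2 (-0.80, SE 0.15, adjusted p = 0.0111), named after its values were seen. Cyclin D1, Ccnd1, rose (0.78, SE 0.16, adjusted p = 0.0174). All 4 were free of overlap between groups, as were 28.8% of all tested genes. The calls of Fosl2 and Ccnd1 each ended in 4 of 22 alternative settings. Among them was leaving out wild-type library 1 (adjusted p = 0.0547 for Fosl2 and 0.109 for Ccnd1, 0.224% of tested genes called). The call of Egr3 ended in 1, the fit with the mean of the olfactory and vomeronasal receptor genes as covariate. In that fit no tested gene was called, and the covariate did not overlap between groups.

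Among 11 other feedback inhibitors, 1 was called (9.09%, near the 11.5% of all tested genes), Errfi1, which codes for an inhibitor of the EGF receptor. It had 1425, 1300.1, 1540.3 and 1112 normalised counts in the knockout-labelled libraries, against 1844, 1960 and 2052 in wild type, and fell by 0.55 on the log2 scale (SE 0.14, adjusted p = 0.0274). Its call ended in 9 of 22 alternative settings. Of 14 genes of AU-rich mRNA decay and cell dissociation, 1 was called, Nr4a1, an orphan nuclear receptor of the immediate early class, at -0.91 (SE 0.16, adjusted p = 0.00941). Its call ended in 4 of 22 alternative settings, among them leaving out wild-type library 1 (adjusted p = 0.0758, 0.224% of tested genes called). That list had a median of -0.14, and its 0 called higher and 1 called lower compare with 5.98% and 5.53% of all tested genes.

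Upstream of the feedback genes, calls are given beside the 11.5% of all tested genes called. Of 14 receptor genes 1 was called, Fgfr3, which fell by 0.75 on the log2 scale (SE 0.23, adjusted p = 0.0482, groups overlapping), a call that ended in 14 of 22 alternative settings. Of 19 genes from Grb2 through Ras, Raf and MEK to ERK 1 was called, the small GTPase gene Hras. Hras rose, with 959.8, 803, 848 and 973 normalised counts in the knockout-labelled libraries, against 409, 621 and 655 in wild type (log2 fold change 0.70, SE 0.17, adjusted p = 0.0268), and its call ended in 9 of 22 alternative settings. Of 16 tested genes of the JNK and p38 branches limma called 0, and 0 had an unadjusted p under 0.05. The most abundant of these, Map3k1 and Mapkapk2, stood at -0.20 (SE 0.13) and 0.19 (SE 0.13). The medians of the receptor, Ras to ERK, and JNK and p38 lists were 0.09, 0.11 and 0.05. Over the 7 lists 10 of 96 tested genes were called, or 10.4%, near the 11.5% of all tested genes. The count was 1 without wild-type library 1 and 5 without knockout-labelled library 1 or 4, settings in which 0.224%, 3.55% and 3.77% of all tested genes were called.

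**Figure D4:**
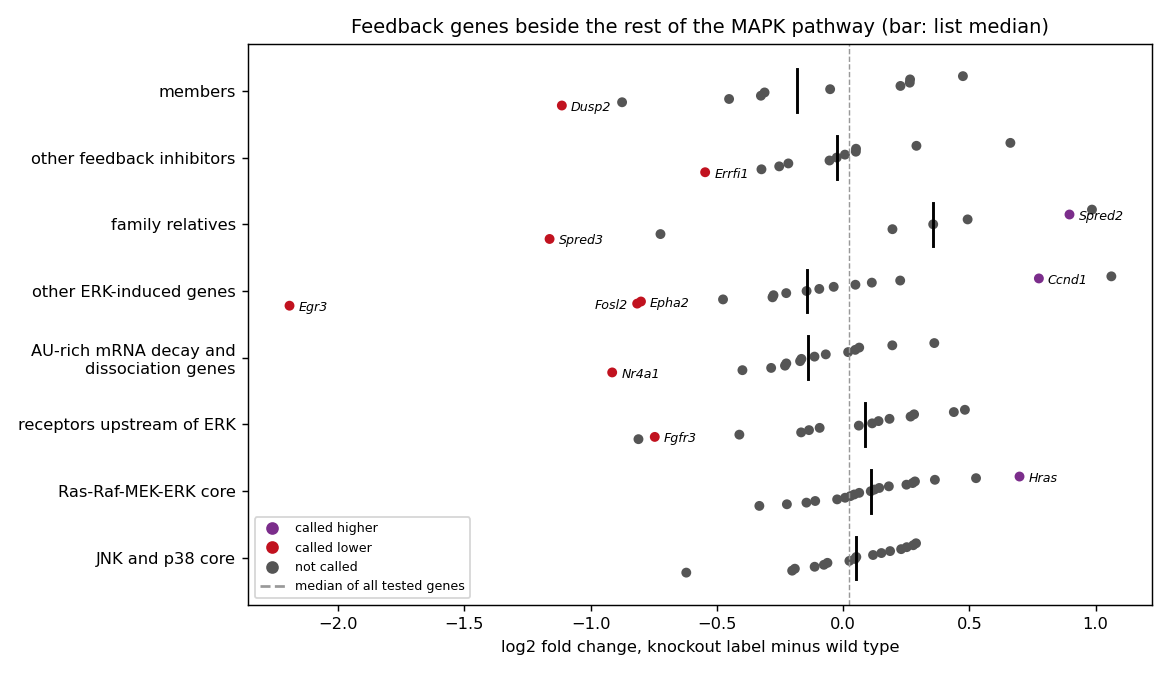
Log2 fold changes (knockout label over wild type) of every tested gene in the member list and 7 further lists (1 point per gene, bar for the list median, dashed line for the median of all tested genes, 0.02). Called genes are coloured and named; the members spread from -1.11 to 0.47 around a median of -0.18.

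By likeness of pattern, the average of the members' centred log2 values over the 7 libraries was set against that of 9615 genes with a mean of 100 or more, predicted and mitochondrial symbols left out. It was highest in wild-type library 2 (0.37) and lowest in knockout-labelled library 4 (-0.29). The groups overlapped through knockout-labelled library 3 (0.17), which lay above wild-type libraries 1 (-0.06) and 3 (0.01). The genes most like it were Zfp281 (Pearson r = 0.985 over 7 libraries), Trpv2 (0.974), Chd7 (0.965), Zfp960 (0.95) and Mob3c (0.938), given as a description of these libraries.

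**Figure D5:**
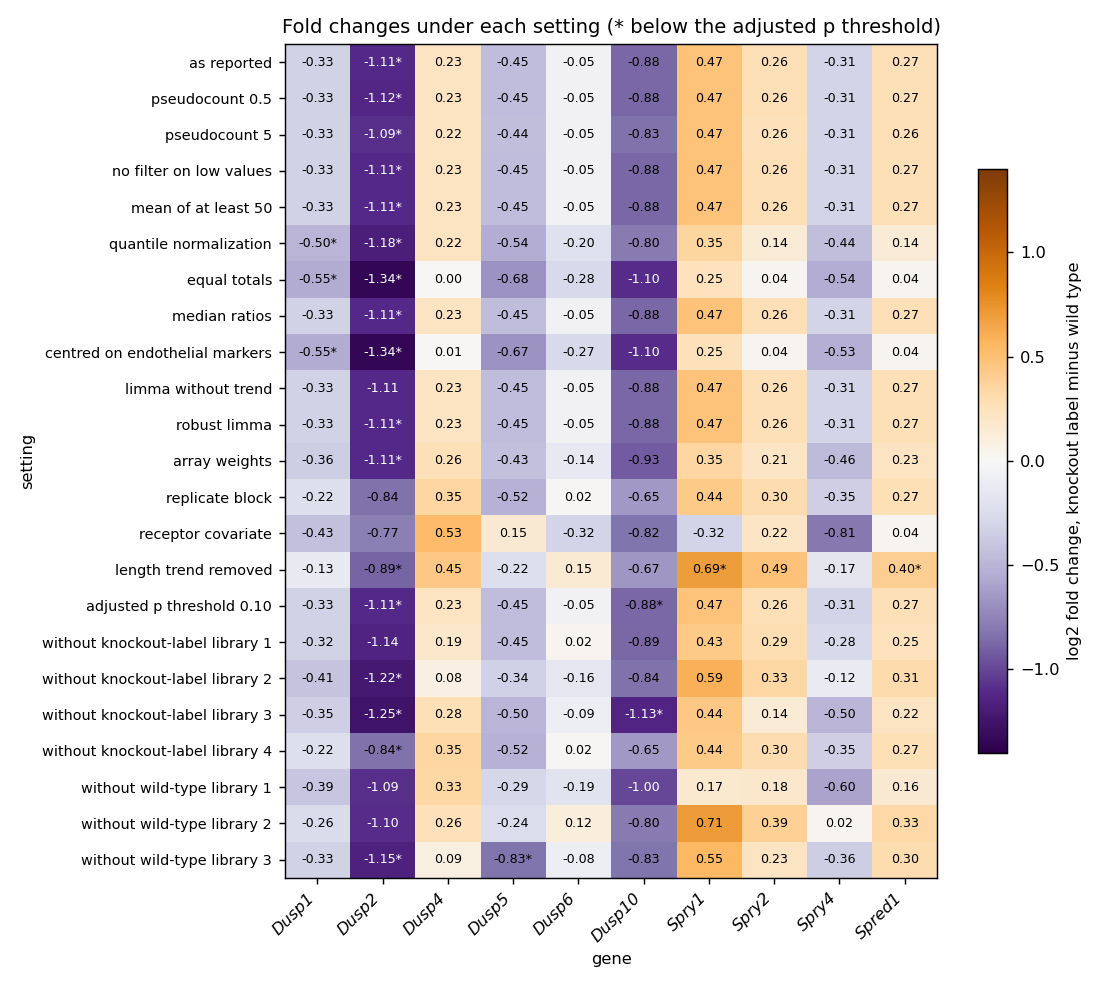
Log2 fold changes (knockout label over wild type) of the 10 feedback genes (columns) as reported and under 22 alternative settings (rows), coloured from purple (lower in the knockout-labelled libraries) to orange (higher), with an asterisk where the adjusted p passed the threshold of that setting. Dusp2 stayed below 0 throughout, from -1.34 to -0.77, and passed in 16 of the 22.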

How the data were processed

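Per the labels' protocols, RNA was isolated with an RNeasy Plus kit and 10 ng went into Takara Clontech PicoMammalian v2 libraries. Each library has its own deposited table, in which the authors give a normalised count per gene, a scaled signal with decimals. Per the submitters' processing notes, kallisto, featureCounts, DESeq, DESeq2 and build GRCm39 were used, with no role or version given. Low values (up to 10 times the smallest step) were whole multiples, to a tolerance of 0.02, in 24.4% to 48.6% of cases per library. Whole reads could thus not be recovered, and neither a count test nor counting intervals are given.

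The log scale was log2(normalised count + 1), fitted with limma 3.58.1 in R 4.3.3 (lmFit, eBayes with a mean-variance trend). The fit covered 16931 genes with a mean of at least 10, with group as the only term. It was also run on simulated independent normal values. These lack the differences between libraries described above, so that run cannot show how the fit handles them. Groups come from the sample titles. Single ratios used exact permutation over 35 splits. The members, gene lists, tests and alternatives were chosen with earlier results of these data known. Alternatives for the pathway lists and their named genes were added after the data were seen.

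Named genes are the members, Slc2a1, up to 2 called genes per list and direction with the smallest p (or the 2 most abundant where none was called), and the 5 genes most like the members' average. Exonic lengths by symbol come from GENCODE M21 (GRCm38), which matched 96.4% of symbols. Sequences and their coordinates are of GRCm38, not the submitters' build, and serve only to show the genes.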

Additional observations from a re-analysis of the deposited data

Results flagged for a closer look

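Among 39 values checked in the knockout-labelled libraries, 3 had 1 library standing apart from the other 3 by more than Dixon's 95% limit, where chance alone does so for about 1 in 20 groups. Spry1 stood apart in knockout-labelled library 2, at 1225 normalised counts against 1673 to 1714 in the others (gap over range 0.916). The log2 ratio of Spred1 to Spry2 stood apart in library 3, at 1.54 against 1.84 to 1.90 (0.842). Dusp9 stood apart in library 1, at 1.36 normalised counts with 0 in the others (1.00).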

How the results depend on the processing

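Counts given next are of all genes, members and pathway-list genes called, 1949, 1 and 10 as reported. They were 1058, 2 and within 1.5 times with quantile normalization; within 1.5 times, 2 and 16 with equal totals; and 1200, 2 and within 1.5 times when centred on endothelial markers. Limma without trend gave 17, 0 and 1, the length trend removed 3780, 3 and 18, and a threshold of 0.10 gave 3842, 2 and 17. The receptor covariate (mean log2 value of 1153 olfactory and vomeronasal receptor genes) gave 0, 0 and 0 (749 genes at an unadjusted p under 0.05). That covariate was 1.36 to 1.73 in the knockout-labelled libraries and 2.12 to 3.19 in wild type. Since it did not overlap between groups, its fit can hardly separate the covariate from the label. Calls lost and signs changed in that fit, also where counted among the alternative settings, are therefore not evidence about single genes. The replicate block gave 119, 0 and 1. Knockout-labelled library 4 has no wild-type partner, so this fit takes its fold changes without that library, whose removal alone gave 639 genes. The labels do not say if equal numbers pair libraries. Correlations of deviations from the group means were -0.0806, -0.048 and -0.125 for numbers 1 to 3, and -0.116 to 0.195 between unlike numbers. Those few values do not settle the question. Leaving out 1 library gave 38 to 1992 genes (601 and 639 without knockout-labelled libraries 1 and 4, 38 and 1057 without wild-type libraries 1 and 2), 0 to 2 members and 1 to 11 list genes. Other pseudocounts, filters, median ratios, robust limma and array weights kept all 3 counts within 1.5 times. Dusp2 was not called in limma without trend (adjusted p = 0.0902), with the block (0.103) or with the receptor covariate (0.996). Signs changed for Dusp6 with the block, as without knockout-labelled library 4 (0.0189), and length trend (0.153) and over left-out libraries (-0.191 to 0.116), for Dusp5 (0.155) and Spry1 (-0.316) with the receptor covariate, and for Spry4 over left-out libraries (-0.599 to 0.0235). Mapkapk2 changed sign with equal totals (-0.0398), endothelial centring (-0.0361) and the receptor covariate (-0.0197), and Slc2a1 with the length trend removed (0.0911) and over left-out libraries (-0.243 to 0.0233). The ratios of Spred1 to Spry2 (-0.0621 to 0.0829) and Spry1 to Spry2 (-0.0103 to 0.321) crossed 0 over left-out libraries. The causes were not tested. Precision differed among members, with an SE of 0.33 for Dusp10 and 0.14 for Dusp1.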
